A study of Mus musculus with 13 samples.

Results

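The replication-dependent histone genes were followed across DRIP-seq libraries of N2a cells, a mouse neuroblastoma line. Members were all protein-coding genes of the GENCODE vM1 annotation of the mouse genome build mm9 whose symbol begins with Hist1h, Hist2h, Hist3h or Hist4h, which gave 67 of 22380 protein-coding genes. The Hist1 cluster on chromosome 13 held 55 of them, the Hist2 cluster on chromosome 3 held 9, the Hist3 pair lay on chromosome 11, and the single Hist4 gene lay on chromosome 6. By product, 6 encode the linker histone H1, 19 encode H2A, 18 H2B, 11 H3 and 13 H4. A member was called in a library when a peak overlapped its annotated bounds, extended by 1 kb at each end, by at least 1 base.

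DRIP-seq pulls down hybrids of RNA and DNA with the S9.6 antibody and sequences the DNA, which maps R-loops, the structures in which an RNA pairs with 1 DNA strand and displaces the other. Untreated N2a cells were transfected with scramble siRNA (siScramble), with siRNA against the putative RNA helicase DDX1 (siDDX1) or with siRNA against EXOSC3 (siEXOSC3), a subunit of the RNA exosome, with 3 libraries each from separate culture plates. Genomic DNA of all groups was cut with BsrGI, EcoRI, HindIII, SspI and XbaI, and 1 library per siRNA was made from DNA first digested with RNase H, an enzyme that degrades RNA paired with DNA. The comparisons ask whether histone genes carry RNase H-sensitive signal and whether its extent differs between the groups.

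The groups are those of the sample titles. The peak names inside the lists gave another siRNA in 12 of 12 cases. Lists titled siScramble held names of siDDX1, lists titled siDDX1 held names of siEXOSC3, and lists titled siEXOSC3 held names of siScramble. Every direction between groups below depends on this choice, and by the peak names siDDX1 against siScramble would be siEXOSC3 against siDDX1. The peak lists hold no measure of DDX1 or EXOSC3 themselves. The untreated lists held 23882 to 42571 peaks and the RNase H lists 3811 to 8034. In bulk cells, hybrids in fewer cells and less hybrid per cell cannot be told apart. As a check of the cell line, 5 of 14 marker genes of neuroblastoma and sympathetic neurons were called in all 9 untreated libraries and 0 of 12 markers of other cell types were, although a peak is not a measure of expression.

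Replication-dependent histone genes supply the histones that package newly made DNA and are transcribed mainly in S phase. Most are short, without introns, and grouped in clusters, often with an H2A and an H2B gene that start back to back. Their mRNAs end not in a poly(A) tail but in a short stem-loop, which is bound by the stem-loop binding protein SLBP and lies beside the cleavage site that the U7 ribonucleoprotein selects.

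The stem-loop is shown first because it is the sequence that defines the family and was not used to choose the members. The DNA 200 bases after each stop codon was searched on the sense strand for a motif of 16 bases, made of GG, 2 free bases, CTT, 1 free base, T, 1 free base, AG, 2 free bases and CC, in which the outer 6 bases of each end pair. It was found in 63 of 67 members and in 66 of 21930 protein-coding genes with an annotated stop codon in all (0.301%). The other 3 were H2afx, 1700014N06Rik and Nova2. Capitals mark the matched 16 bases, given as DNA, 5′ to 3′, from mm9, under the members that carry them.
39 members of types H1, H2A, H2B and H3: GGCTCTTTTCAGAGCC
9 members of types H1, H2A, H2B and H3: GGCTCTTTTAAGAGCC
8 members, all H4: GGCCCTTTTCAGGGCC
Hist1h4i and Hist2h4: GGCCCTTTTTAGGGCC
Hist1h4j and Hist1h4b: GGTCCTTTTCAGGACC
Hist1h4a: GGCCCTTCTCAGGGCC
Hist1h3g: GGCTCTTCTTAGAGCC
Hist2h2ac: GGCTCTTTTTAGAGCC

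All 13 H4 genes thus carried a stem that no H1, H2A, H2B or H3 gene shared. No match was found for Hist1h2an, Hist1h2al, Hist2h2be and Hist2h2bb. Among all protein-coding genes, 26.2% were called in all 9 untreated libraries and 50.1% in none. Of the 39 members with the commonest stem-loop 9 were called in all 9 untreated libraries and 17 in none. Of the 8 H4 genes with their commonest form 2 were called in all and 3 in none. The 9 members with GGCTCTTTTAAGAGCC counted 0 called in all and 4 called in none.

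In front of the genes, the 250 bases before each start were searched on both strands for CCAAT, the box bound by NF-Y, for TATAAA, for ATTTGCAT, the octamer bound by POU factors, and for AAACACA, the element of H1 promoters. CCAAT stood in 85.1% of the members' promoters and in 35% of all promoters. It was found before every H1, H2A and H2B gene and before 4 of 13 H4 genes. TATAAA stood in 49.3% of members and 12.3% of all promoters. ATTTGCAT stood in 22.4% and 1.62%, and among members it was found only before H2B (8 of 18) and H2A (7 of 19) genes, whose shared promoters overlap. AAACACA stood in 13.4% and 5.67%, with 5 of 6 H1 genes holding it. The promoters of 4 members that the results turn on are printed 5′ to 3′ in the direction of the gene with these motifs, on either strand, in capitals. They come from a linker histone gene called in every untreated library, from a divergent H2A-H2B pair called in every one, from the gene whose calls separated the groups, and from a divergent pair never called.
Hist1h1c, chr13:23830556-23830675, plus strand: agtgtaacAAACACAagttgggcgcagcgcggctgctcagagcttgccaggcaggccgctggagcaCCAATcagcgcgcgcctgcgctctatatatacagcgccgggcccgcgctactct
Hist1h2bn with Hist1h2ak, chr13:21845792-21845991, plus strand: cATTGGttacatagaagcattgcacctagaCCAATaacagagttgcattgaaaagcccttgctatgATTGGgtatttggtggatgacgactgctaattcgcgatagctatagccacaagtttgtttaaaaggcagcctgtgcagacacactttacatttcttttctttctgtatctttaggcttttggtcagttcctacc
Hist1h2bc, chr13:23775868-23776067, plus strand: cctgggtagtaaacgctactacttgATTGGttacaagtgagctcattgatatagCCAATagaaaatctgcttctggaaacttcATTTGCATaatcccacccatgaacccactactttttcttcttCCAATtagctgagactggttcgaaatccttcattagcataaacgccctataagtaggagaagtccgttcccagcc
Hist1h2bk with Hist1h2ah, chr13:22127570-22127689, plus strand: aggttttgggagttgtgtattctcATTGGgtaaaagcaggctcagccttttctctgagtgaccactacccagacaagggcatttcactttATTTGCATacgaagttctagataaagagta

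Over the 9 untreated libraries, 13 members were called in all 9 (19.4%, against 26.2% of all protein-coding genes), 26 in 1 to 8 (38.8% against 23.7%) and 28 in none (41.8% against 50.1%). The size of this window follows gene length, which had a median of 530 bases in members. Whether length bears on these shares was not tested. Within 1 kb either side of the start alone, a window of one size for all genes, 11 members were called in all 9 libraries (16.4% against 11.2%) and 30 in none (44.8% against 65.9%). Per library, 15 to 37 members were called, a mean of 28.3 ± 7.83 (SD, n = 9).

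By cluster, the calls varied. Among all protein-coding genes, 26.2% were called in all 9 libraries and 50.1% in none. All 9 Hist2 genes were called in at least 4 libraries, 5 of them in all 9, and both Hist3 genes were called in all 9. Of the 55 Hist1 genes, 6 were called in all 9 libraries and 28 in none. The Hist1 genes fall into 5 blocks separated by more than 100 kb. The block at chr13:21807632-21929399 had 12 of 18 genes called in at least 1 library. The block at chr13:23622919-23856283 had 15 of 29, near the share of all protein-coding genes. The block between them, chr13:22126982-22135545, had none of its 5 genes called in any library, nor had the 3 genes of the last 2 blocks.

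By product, every histone type had genes called in all libraries and genes called in none. These 2 classes held 26.2% and 50.1% of all protein-coding genes. Of the H1 genes, 2 were called in all 9 libraries (Hist1h1c and Hist1h1e), 3 in some (Hist1h1a, Hist1h1b and Hist1h1d) and 1 in none, the testis-type Hist1h1t. Of the H2A genes 3, 7 and 9 fell in these classes, of the H2B genes 3, 7 and 8, of the H3 genes 2, 4 and 5, and of the H4 genes 3, 5 and 5. The other testis-type genes, Hist1h2aa and Hist1h2ba, share a divergent promoter and were called in 0 of 9 libraries, as was Hist1h1t.

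**Figure D1:**
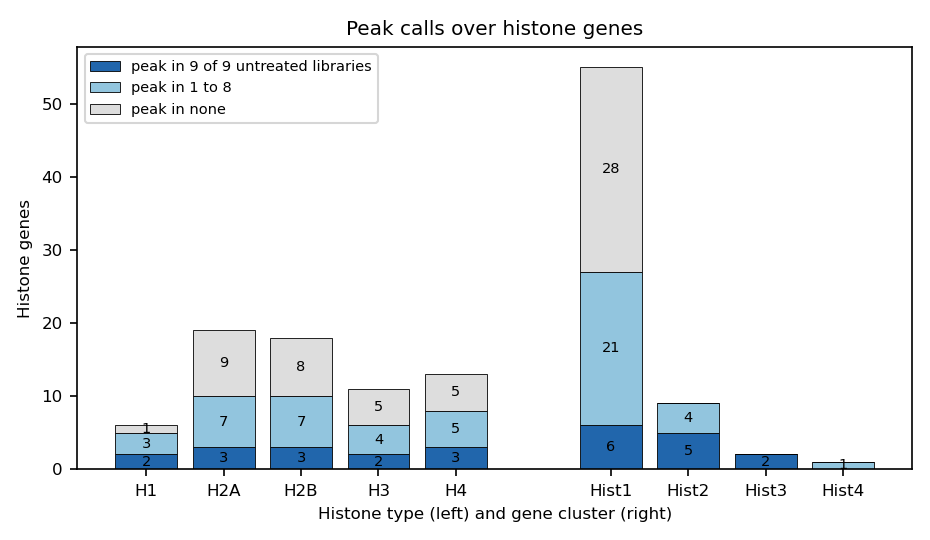
Number of histone genes (vertical axis) called in 9 of 9, in 1 to 8 or in none of the untreated libraries, by histone type on the left and by cluster on the right. Each type holds genes of all 3 classes, and no Hist2, Hist3 or Hist4 gene falls in the class called in none.

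The peaks behind these calls were wide and strong for their libraries. The untreated lists held 261 peaks over members, 18 to 40 per library, with a median width of 935 bases against 530 for all their peaks. Their median fold enrichment, the ratio of signal to local background given by the authors' peak caller, stood at percentile 84.5 of its own library, and 100 of the 261 peaks (38.3%) lay in the top 10%. At least 1 edge of 138 peaks (52.9%) fell exactly on the top-strand cut of one of the 5 restriction enzymes. Both edges did for 37 (14.2%), so the extent of a peak is partly the extent of a restriction fragment. Right edges a few bases past such a cut were not counted, as at chr13:21809026 beside a BsrGI cut at 21809022. Both counts are therefore lower limits. Merged over the libraries the peaks formed 40 regions, of which 12 were called in 9 of 9 libraries and 7 in 1. Of these 40 regions 17 lay over the windows of more than 1 member, so members are not independent of each other. Exons of annotated genes took up 31.9% of the regions' bases, introns 16.7%, and 51.4% lay between genes.

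Coverage was highest just after the start. At 100 bases downstream of the start, 23.2% of the member-library pairs were covered by a peak in the untreated libraries, against 13.4% at 1 kb downstream and 15.4% at 1 kb upstream. For all protein-coding genes the highest value was 13.2%, at 50 bases upstream. The strongest peak of a called member had its summit a median of 298 bases downstream of the start, and 151 of 255 summits (59.2%) lay downstream. Neighbouring histone genes lie within 5 kb of many members and add to the flanks.

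**Figure D2:**
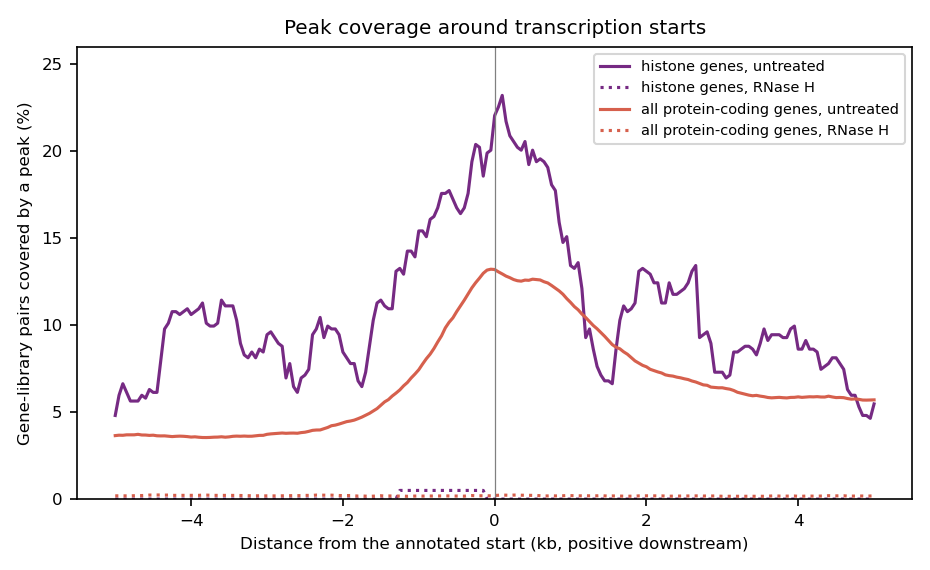
Share of gene-library pairs covered by a peak (vertical axis, %) against the distance from the annotated start (horizontal axis, kb). Solid lines are the 9 untreated libraries and dotted lines the 3 RNase H libraries, for the 67 histone genes and for all protein-coding genes. The histone genes peak at 23.2% just downstream of the start, and all genes at 13.2%.

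Hist1h1c, which encodes a linker histone, had the steadiest peak. In 9 of 9 untreated libraries the same bases were called, chr13:23830538-23831839, 1302 bases with both edges on SspI cuts. The fragment holds the whole promoter stretch printed above and the transcribed sequence as far as the stem-loop at chr13:23831381-23831396. Exons of Hist1h1c cover 89.4% of it. These are the cut sites at its left and right edge on the plus strand, with the SspI recognition sequence in capitals.
Left edge, chr13:23830525-23830550: aagatattttAATATTttctcctttt
Right edge, chr13:23831827-23831852: tgccttccttAATATTaaagacatgg

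The fold enrichment of this peak was 14.7, 16.1 and 21.7 in the siScramble libraries, 15.7, 9.84 and 11.7 in the siDDX1 libraries, and 19.9, 14.1 and 39.9 in the siEXOSC3 libraries. The groups overlap, and because each value is relative to its own library's background no test between libraries was made on it. All 3 RNase H libraries had 0 covered bases.

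The divergent genes Hist1h2ak and Hist1h2bn, 215 bases apart, shared 1 peak in every untreated library. It ran over chr13:21844647-21846966, from an XbaI cut to an SspI cut, in all but siDDX1 replicates 2 and 3. There it kept its left edge and ended at 21845936 and 21846120. Covered bases of the 2513-base Hist1h2ak window were 2130 in each siScramble and siEXOSC3 library, and 2130, 1290 and 1474 in the siDDX1 libraries. The fold enrichment of the peak was 13.2, 18 and 17.1 (siScramble), 13.4, 4.54 and 7.64 (siDDX1), and 13.3, 17.1 and 31.5 (siEXOSC3). Both measures were lowest in siDDX1 replicates 2 and 3.

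In all, 13 pairs of members started back to back within 167 to 692 bases, 12 of them an H2A and an H2B gene. In 7 of the 13 pairs neither start was called in any library. Called or not, the 2 starts of each pair had the same state in every library when judged within 1 kb of the start. Windows of a pair overlap by construction, so this is not a separate measurement for each gene.

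Hist2h4, which encodes H4, had 3070, 3165 and 3229 covered bases in the siScramble libraries, 2553, 1175 and 924 in the siDDX1 libraries and 2857, 2857 and 2570 in the siEXOSC3 libraries, of a window of 3608. The 3 groups did not overlap, and the siDDX1 libraries were lowest. The mean share of the window was 87.4%, 43% and 76.5% in turn. In siScramble replicate 1 a single peak ran over the gene from a HindIII cut, while siDDX1 replicate 2 had 2 shorter peaks.

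Hist2h3c1, which encodes H3, had the strongest peaks of the 8 members with most covered bases, with a median fold enrichment of 24.4, at percentile 98.8 of its library. Its covered bases were 1869, 2610 and 2303 (siScramble), 1943, 1260 and 1830 (siDDX1), and 2289, 2027 and 2283 (siEXOSC3). Every siEXOSC3 library was above every siDDX1 library, while the siScramble values overlapped both. Its central region, chr3:96050990-96052158, lay entirely in an exon of the gene.

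Hist2h2bb, an H2B gene annotated over 9281 bases, had the most covered bases of all members, which its length allows. It had 3722, 4618 and 4581 (siScramble), 4287, 1277 and 1260 (siDDX1), and 1511, 2789 and 5242 (siEXOSC3). The groups overlapped. The region at chr3:96077716-96079051 was wholly intronic, and that at chr3:96079255-96082486 was intronic for 74.8% of its bases.

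The Hist3 genes lie beside each other and near Trim17, which the same peaks also overlapped, so that signal cannot be assigned to 1 gene. Hist3h2a, an H2A gene, had 3469 covered bases in each siScramble library, 2982, 1317 and 2577 in the siDDX1 libraries and 2652, 2560 and 3091 in the siEXOSC3 libraries, of 3990. Both other groups lay below siScramble. Hist3h2ba, an H2B gene, had 1284, 1954 and 1954, then 1466, 1022 and 488, then 1466, 1954 and 1954 in the same order, of 2620. Its groups overlapped.

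Among the linker histone genes, Hist1h1a had 1729, 1587 and 2168 covered bases (siScramble), 1636, 0 and 373 (siDDX1), and 1812, 1752 and 1800 (siEXOSC3). Hist1h1e had 1195 in 7 of the 9 libraries, with 1682 in siScramble replicate 2 and 584 in siDDX1 replicate 2. Its peak also touched the window of Hist1h2be, whose annotation runs over 37383 bases and starts beside Hist1h1e.

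Hist1h2bc, an H2B gene, was the only member called in every library of one group and in none of another. It had 1105, 1217 and 1788 covered bases in the siScramble libraries, 0 in each siDDX1 library, and 935, 368 and 837 in the siEXOSC3 libraries. The fold enrichment of its strongest peak was modest, 5.59 to 7.95 over the 6 libraries. That peak did not lie at the promoter printed above. Its region, chr13:23777288-23778392, was wholly within an intron of the longer annotated transcript and was bounded by SspI on the right in 5 of the 6 libraries. Of the 11165 genes called in any untreated library, 0.233% were called in all siScramble and no siDDX1 library, and 0.743% in all siEXOSC3 and no siDDX1 library. No member showed any of the other 4 such patterns, which held for 0.179% of genes (all siDDX1, no siScramble), 0.197% (all siDDX1, no siEXOSC3), 0.86% (all siEXOSC3, no siScramble) and 0.17% (all siScramble, no siEXOSC3). Within 1 kb of its start Hist1h2bc was called in 3 libraries, and in that window no member was all-or-none between any pair of groups.

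**Figure D3:**
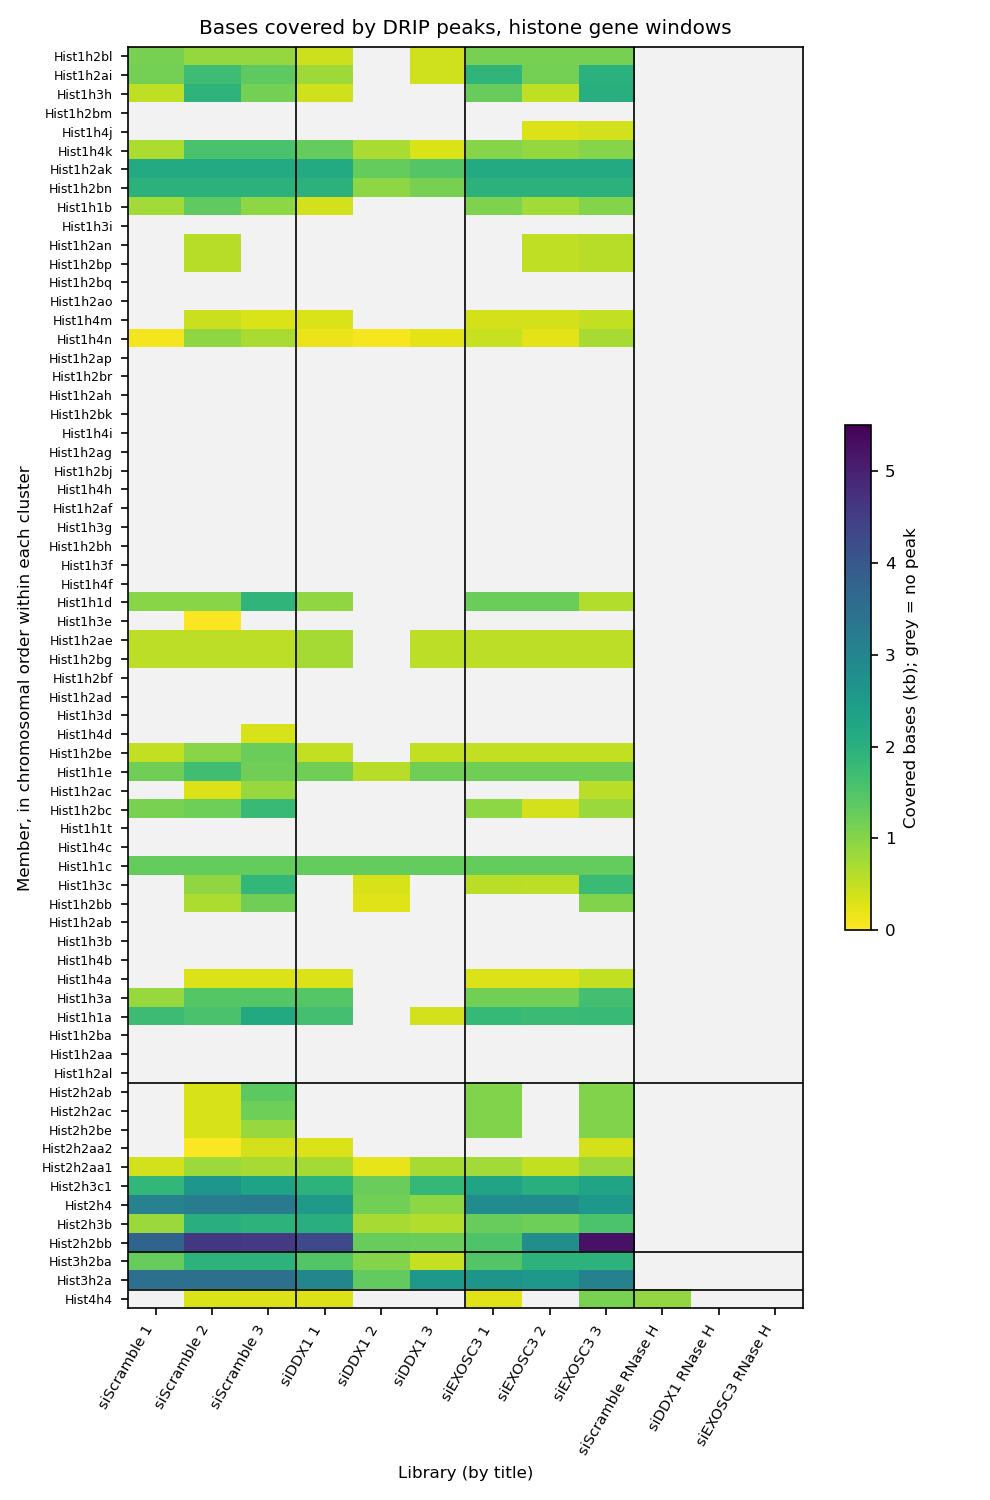
Bases covered by peaks (colour, kb; grey for no peak) in the window of each of the 67 histone genes (rows, in chromosomal order within Hist1, Hist2, Hist3 and Hist4, separated by lines) in the 12 libraries (columns, by title). Calls run in neighbouring genes, and 66 of the 67 rows are grey in all 3 RNase H columns.

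After RNase H digestion nearly all of these peaks were absent. In the RNase H libraries 1, 0 and 0 members were called. The 1 was Hist4h4, in the siScramble RNase H library. Of all protein-coding genes, 13.5% were called in at least 1 RNase H library, against 1.49% of members. Within 1 kb of the start, where every window has the same size, the shares were 1.59% and 1.49%, so the gap was not seen there. Covered bases were compared with a two-sided exact permutation test per gene, moving the RNase H label within each siRNA group over 64 assignments, with Benjamini-Hochberg adjustment over 12125 genes. It called 12 of 39 members lower after RNase H (30.8%, against 38.2% of the genes tested), all at an adjusted p of 0.0388, and 0 higher (against 2.1%). That adjusted p is the smallest this design gave. All 39 members had an untreated peak, and all but Hist4h4 had 0 covered bases in every RNase H library. A higher call was thus open to Hist4h4 only. The 12125 genes include some with a peak only after RNase H, as 11165 had an untreated peak. The shares of members and genes thus come from unlike sets.

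The 12 were Hist1h1c and Hist1h1e (H1), Hist1h2ak, Hist2h2aa1 and Hist3h2a (H2A), Hist1h2bn, Hist2h2bb and Hist3h2ba (H2B), Hist2h3b and Hist2h3c1 (H3), and Hist1h4k and Hist2h4 (H4). Their mean fell by 631 bases at Hist2h2aa1, the least, and by 3254 bases at Hist2h2bb, the most. Hist1h4n, an H4 gene, was called in all 9 untreated libraries and in no RNase H library and missed the threshold, with an exact p of 0.0313 and an adjusted p of 0.0677. These calls stand at the smallest exact p the design allows, 0.0156 over 64 assignments. Leaving out 1 untreated library leaves 48 assignments and a smallest exact p of 0.0208. No gene is then called without siScramble replicate 2 or 3, siDDX1 replicate 3 or any 1 siEXOSC3 replicate. The smallest adjusted p there is 0.0501 to 0.0576. No gene is called within 1 kb of the start (0.0513) or with 3811 peaks from each of the 12 lists (0.0506). An unadjusted exact p under 0.05 held for 21 members in the main test and 18 to 21 with a library left out. It held for 20 within 1 kb of the start and 8 with 3811 peaks.

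Hist4h4, an H4 gene, differed from the others. It had 0, 301 and 286 covered bases in the siScramble libraries, 284, 0 and 0 in the siDDX1 libraries, 276, 0 and 1098 in the siEXOSC3 libraries, and 885 in the siScramble RNase H library. Its untreated peaks were among the weakest, with a median fold enrichment of 3.7, at percentile 3.08. The RNase H peak reached a fold enrichment of 6.81. The mean difference, RNase H minus untreated, was 45.6 bases with an exact p of 0.969, and its sign turns with the window or without siEXOSC3 replicate 2.

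Between the siRNA groups, the siDDX1 libraries had the fewest histone genes called. The siScramble libraries had 24, 37 and 35 members called, the siDDX1 libraries 27, 15 and 19, and the siEXOSC3 libraries 31, 30 and 37. Every siEXOSC3 library was above every siDDX1 library, and siScramble replicate 1 lay below siDDX1 replicate 1. Of all protein-coding genes, 32.4%, 41.1% and 41.5% were called in the siScramble libraries, 42.4%, 32.6% and 36.1% in the siDDX1 libraries, and 38.1%, 39.3% and 43.1% in the siEXOSC3 libraries. Of the 9 untreated libraries, the 3 siDDX1 libraries were those in which members were called less often than all genes in this window, which held for 2 of the 3 once peak number was matched and for none within 1 kb of the start. No test was made on these counts, since the genes share peaks and were chosen together.

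Peak number moves with these counts and was matched. Taking the 23882 peaks with the highest −log10 q-value from each list, 24, 31 and 33 members were called in the siScramble libraries, 26, 15 and 17 in the siDDX1 libraries, and 30, 30 and 34 in the siEXOSC3 libraries. Of members, 35.8%, 46.3% and 49.3% were then called in siScramble, against 32.4%, 35.2% and 34.9% of all genes. The shares were 38.8%, 22.4% and 25.4% in siDDX1, against 36.3%, 32.5% and 32.9%, so siDDX1 replicate 1 was no longer below all genes. In siEXOSC3 they were 44.8%, 44.8% and 50.7%, against 36.5%, 35.8% and 36.1%. As deposited, siScramble replicate 1 and siDDX1 replicate 2 had nearly the same number of peaks, 23882 and 24167, and 24 and 15 members called.

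**Figure D4:**
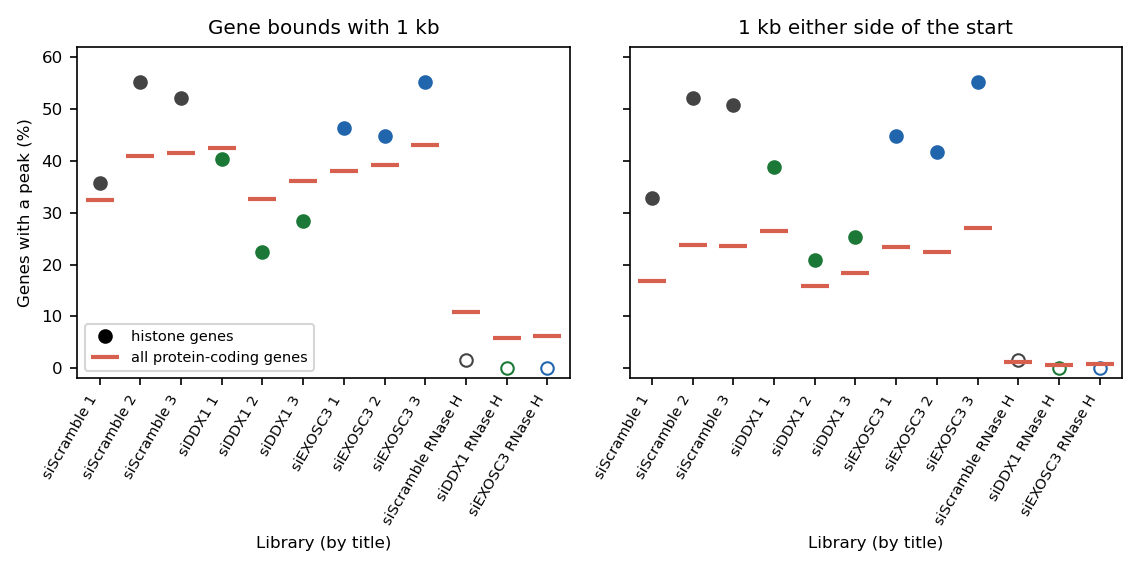
Share of genes with a peak (vertical axis, %) in each of the 12 libraries (horizontal axis, by title), for the 67 histone genes (circles, open for RNase H) and for all protein-coding genes (bars), over gene bounds with 1 kb on the left and within 1 kb of the start on the right. On the left the circles lie below the bars in the 3 siDDX1 and 3 RNase H libraries and above them in the other 6. On the right they lie above the bars in all 9 untreated libraries.

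Gene by gene, the mean covered bases were lower in siDDX1 than in siScramble for 37 of the 39 members called in any untreated library (94.9%, against 61.1% of the 11165 genes) and higher for 0 (against 33%). Hist1h1c and Hist1h4j had equal means (against 5.93%). In siEXOSC3 they were higher than in siDDX1 for 36 members (92.3%, against 57.9%) and lower for 0 (against 38.4%), with equal means in 3 (against 3.71%). Between siEXOSC3 and siScramble, 18 members were lower (46.2%, against 50.2%), 16 higher (41%, against 46.6%) and 5 equal (against 3.22%). These comparisons share libraries and are not independent of each other. A member or gene with no base covered in a group entered through a peak in another group and could not be higher in the first. The median log2 difference, computed after adding 100 bases, was -0.98 for members and -0.11 for all genes from siScramble to siDDX1, 1.21 and 0.10 from siDDX1 to siEXOSC3, and 0 and -0.003 from siScramble to siEXOSC3. With 23882 peaks per list, 32 of 36 members were lower in siDDX1 than in siScramble (against 54.8%) and 33 of 36 higher in siEXOSC3 than in siDDX1 (against 56%). The counts of 0 in the opposite direction did not hold without siDDX1 replicate 2. There 4 members were higher in siDDX1 than in siScramble and 5 lower in siEXOSC3 than in siDDX1.

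Complete separation of libraries was less common. In 8 members every siDDX1 library lay below every siScramble library (20.5%, against 1.86%), and in 0 above it (against 0.815%). These were Hist1h1b and Hist1h1d (H1), Hist1h2ai and Hist3h2a (H2A), Hist1h2bc and Hist1h2bl (H2B), Hist1h3h (H3) and Hist2h4 (H4). In 10 members every siEXOSC3 library lay above every siDDX1 library (25.6%, against 5.05%), and in 0 below it (against 2.36%). Hist1h1b, Hist1h2ai, Hist1h2bc, Hist1h2bl, Hist1h3h and Hist2h4 were among them too, with Hist1h1a, Hist1h3c, Hist1h4m and Hist2h3c1. Hist1h2bl, Hist1h2ai and Hist1h3h share peaks at one end of the first Hist1 block and count as a single place. Every siEXOSC3 library lay below every siScramble library in Hist1h2bc, Hist2h4 and Hist3h2a, 3 members (against 3.55%), and above it in 0 (against 6.4%). In 10 of the 39 members no base was covered in any siDDX1 library (25.6%, against 11.6% of the genes), in 1 none in siScramble (2.56%, against 10.4%) and in 2 none in siEXOSC3 (5.13%, against 7.31%). Such members and genes were counted only through a peak in another group, so these shares describe the calls and are no separate test.

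**Figure D5:**
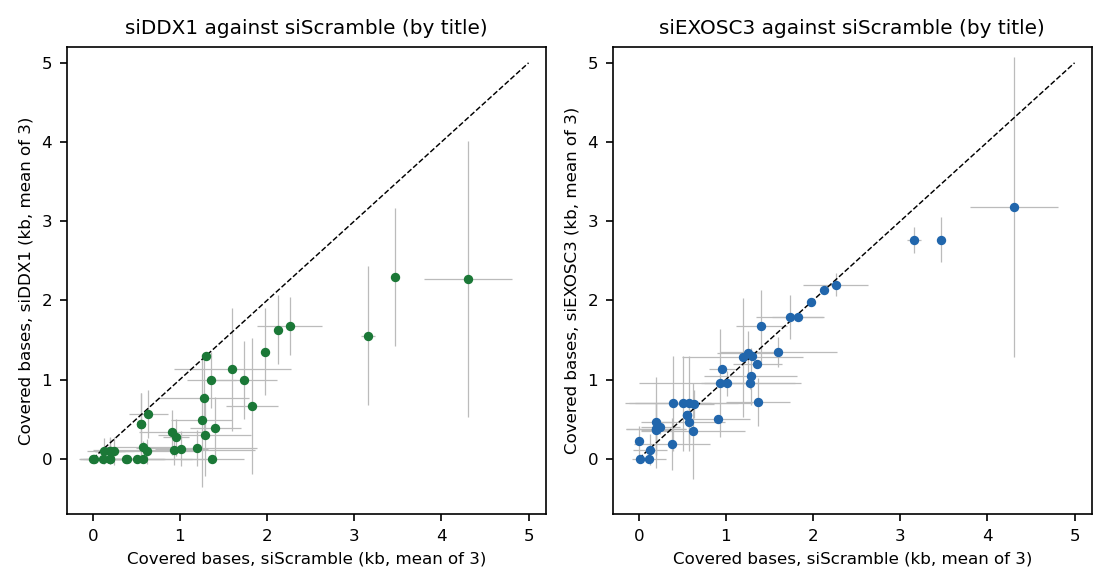
Mean covered bases of the 39 called histone genes in siDDX1 (left) and siEXOSC3 (right, vertical axes, kb) against siScramble (horizontal axes, kb), by title. Points are means of 3 libraries, grey bars are 1 SD, and the dashed line marks equal values. On the left 37 of 39 points lie below the line and none above it. On the right 18 lie below and 16 above.

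No member passed the test across groups. An exact permutation test on the F statistic of covered bases, over all 280 groupings of the 9 libraries by 3 and adjusted over 11165 genes, called 0 genes and 0 members, with a smallest adjusted p of 1. With 280 groupings, this adjustment could call a gene only if far more than the 13 seen lay at or near the smallest exact p. The 0 calls therefore cannot decide whether the groups differ. At an unadjusted exact p under 0.05 there were 311 genes (2.79%) and 5 members (12.8%). These were Hist2h4 and Hist1h2bc, both at the smallest p the groupings allow (exact p = 0.00357, reached by 0.116% of genes), Hist1h2bl (exact p = 0.0143), Hist1h2ai (exact p = 0.025) and Hist1h1b (exact p = 0.0321). Means were 955 ± 151, 270 ± 234 and 1129 ± 0 bases (SD, n = 3) in siScramble, siDDX1 and siEXOSC3 for Hist1h2bl, 1408 ± 288, 391 ± 388 and 1673 ± 461 for Hist1h2ai, and 1017 ± 303, 128 ± 222 and 950 ± 163 for Hist1h1b. In all 3 the siDDX1 mean was lowest. A comparison of 1 pair of groups, 3 libraries against 3, cannot go below an exact p of 0.1.

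Sequence features of members called and not called were set side by side. The restriction fragment at the start had a median of 1298 bases for members called in all 9 libraries, 1151 for those called in 1 to 8 and 1049 for those called in none. The GC content within 500 bases of the start was 54.3%, 54.5% and 52.9% in turn. TATAAA stood before 7 of 13, 18 of 26 and 8 of 28 of these members, and CCAAT before 11, 23 and 23. Across the 67 members, Spearman's rho with the number of libraries called lay between -0.12 and 0.25 for length, fragment length, number of cuts, GC content, CpG content and uniqueness, as a description over genes that share peaks.

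Near-identical copies limit what can be read from some members. Among coding sequences of the commonest length, the median pairwise identity was 96.4% for H2A, with 2 identical pairs, 97.1% for H2B, 97.6% for H3 and 93.9% for H4, with 1 identical pair. The share of 100-base stretches found at 1 place in the genome was under 50% in the windows of 8 members, namely Hist1h2bq, Hist1h2br, Hist1h2ao, Hist1h2ap, Hist1h4m, Hist1h4n, Hist2h2aa1 and Hist2h2aa2. Within the gene bounds alone the median over members was 66.4%, and more members lay under 50%. Among them were Hist2h3b (22.9%), Hist1h3h (26%), Hist1h4k (35.7%), Hist1h2bl (37.9%), Hist2h3c1 (47%) and Hist1h2bn (47.9%). Reads from such copies may be assigned to either. In Hist1h2bq and Hist1h2br, where 0% of the window was unique, and in Hist1h2ao and Hist1h2ap (4.13% each), no peak was called, while Hist1h4n (21.1%) and Hist2h2aa1 (42.3%) were called in 9 libraries. Leaving out the 8 members with windows under 50%, 33 members were lower in siDDX1 than in siScramble and 0 higher. In siEXOSC3 32 were higher than in siDDX1 and 0 lower, and the other called members had equal means. Of all genes called in an untreated library, 61.1% were lower in siDDX1 than in siScramble. A share of 57.9% was higher in siEXOSC3 than in siDDX1.

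Replication-independent histone genes, of which many are expressed through the cell cycle and most carry introns and poly(A) tails, are listed here for comparison. Of 13 found in the annotation, 8 were called in all 9 untreated libraries (against 26.2% of all protein-coding genes), among them H2afx, H2afz, H3f3a, H3f3b and Cenpa, 2 in some and 3 in none. After RNase H, 7 of the 13 were called lower (against 38.2% of the genes tested). H1fnt and Hils1 had no peak in any library and were not tested, so 7 of 13 is not comparable with that share. H2afx, whose mRNA is known to be made both with a stem-loop and with a poly(A) tail, had 3304 ± 91.8, 3203 ± 41.8 and 3047 ± 272 covered bases (SD, n = 3) in siScramble, siDDX1 and siEXOSC3. For Cenpa, the centromeric H3 variant, the values were 4947 ± 1632, 2561 ± 1311 and 2725 ± 645. Among the listed genes with an untreated peak, the siDDX1 mean was above the siScramble mean only at H2afz (2580 against 2280 bases). At the others it was lower, so a lower siDDX1 mean was not confined to the replication-dependent genes.

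Genes whose products make or process histone mRNA numbered 19. Of these, 11 were called in all 9 libraries (against 26.2%), 6 in some and 2 in none, and 7 were called lower after RNase H (against 38.2% of the genes tested). Zfp473 and Ccne1 had no peak in any library and were not tested, so 7 of 19 is not comparable with that share. Slbp, the stem-loop binding protein, had 2089 ± 0, 2255 ± 288 and 2089 ± 0 covered bases (SD, n = 3) in siScramble, siDDX1 and siEXOSC3. Npat, a coactivator of histone transcription, had 1632 ± 561, 1723 ± 1608 and 2032 ± 508. In both lists 0 genes passed the test across groups, as held for all genes, and 0 reached an unadjusted exact p under 0.05.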

How the data were processed

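Peak lists of 12 libraries were used, and the 1 input sample was not analysed here. Per the study's methods the authors aligned reads to mm9 with Bowtie2 2.4.4 at default settings and called peaks for each library with MACS2 2.2.6 against input. Their own comparison used DESeq2 on reads counted again over merged peaks, and those read counts were not used here. The deposited values are, per peak, a fold enrichment (a ratio to local background) and −log10 p-values and q-values, the lowest −log10 q lying just above 2. Sequencing depth was not used, so precision rests on 3 libraries per group.

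Covered bases per window, calls, coverage around starts, motifs, restriction cuts and 100-base uniqueness were computed with numpy 2.4.6 and scipy 1.17.1 under Python 3.11.15 (figures with matplotlib 3.10.9), from the mm9 (NCBIM37) sequence and GENCODE vM1. Tests were exact permutation tests with Benjamini-Hochberg adjustment over all protein-coding genes with a peak, at 0.05, and were tested on simulated data. Values per library are given for the 8 members with most covered bases, all-or-none members, members with an RNase H peak, the Hist3 and Hist4 genes and testis-type genes, and others were named for the pattern described. Members and lists were chosen with earlier results of these data known.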

Additional observations from a re-analysis of the deposited data

How the results depend on the processing

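Of the counts reported, 13 members called in all 9 untreated libraries became 8 with a −log10 q of at least 5 and 7 without the 1 kb extension, and 13 to 19 when 1 library was left out. The 12 members called lower after RNase H became 6, 7, 0 within 1 kb of the start and 0 with equal peak numbers, and 0 to 18 with 1 untreated library left out, where the smallest unadjusted p was 0.0208. All-or-none members numbered 1 between siDDX1 and siScramble (0 at the start, 1 to 5 with a library left out), 0 between siEXOSC3 and siScramble (0 to 1), and 1 between siEXOSC3 and siDDX1 (2 at a −log10 q of at least 5, 0 at the start, 1 to 7). The difference of Hist4h4 after RNase H turned to -126 bases without the extension, -0.222 as present or absent and, with a library left out, lay between -30.8 (without siEXOSC3 replicate 2) and 152 bases. The cause was not tested.

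The mean of 28.3 members called per library lay between 27.3 and 30 with a library left out. The counts of 37 and 36 members by direction were chosen after seeing the data. With a library left out they lay between 33 and 37 and between 29 and 36. Members in the opposite direction then numbered up to 4 and 5, both without siDDX1 replicate 2. Of the 40 merged regions 37 and 29 had these directions, and 0 and 3 the opposite. The shares of 61.1% and 57.9% given for all genes are per gene, and none was computed per region. Replicate numbers did not pair the libraries: correlations of same-numbered deviations ran from -0.197 to 0.169, with 2 of 9 pairs over 0.1. With the replicate number as a block (36 assignments), 0 genes were called across groups and 2 members had an unadjusted p under 0.05. With so few assignments the adjusted test could hardly call any gene. Peak calls have 2 states, edges follow restriction cuts, and a change of signal within a called peak does not appear.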
